A study of Arabidopsis thaliana with 12 samples.

Results

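The data described here are the effect of estradiol in roots set against its effect in shoots of the same kind of Arabidopsis thaliana seedlings, gene by gene. All 12 of the 12 arrays of the series enter this comparison, and 16550 genes were measured. For each gene the estradiol effect is the mean log2 signal on 3 estradiol arrays minus the mean on 3 DMSO arrays of the same organ. The comparison is the root effect minus the shoot effect, so a positive difference means a higher estradiol effect in roots. The mean of the 2 organ effects is given as its counterpart, for genes that moved alike.

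All seedlings carried an estradiol-inducible CLE2 gene, were 7 days old and were kept at 22 °C. Treatment lasted 24 h, with β-estradiol (labelled 5 mM) or with its solvent DMSO, and was given at the roots. The 4 groups are estradiol roots, DMSO roots, estradiol shoots and DMSO shoots, with 3 arrays each. No seedlings lacking the inducible gene received estradiol, so estradiol itself and CLE2 induction cannot be told apart. The treatment text describes estradiol for all samples, and only the sample titles separate estradiol from DMSO. The series asked which genes respond to CLE2, both where estradiol was given and in the distant shoots. No probe set was paired with CLE2 alone, and its induction was therefore not analysed here.

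CLE peptides are small secreted signals that are cut from larger precursors and perceived by receptor kinases at the cell surface. Some act near the cells that make them, and some move between root and shoot through the vascular tissue, where they carry information on nutrients or water. Plant cells also sense their own energy supply: when sugar runs low or light is lost, the kinase SnRK1 becomes active and switches on a set of starvation genes while growth genes are turned down. Roots depend on sugar exported from shoots, so the energy state of the organs is linked.

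Most genes carry a locus code (AT, the chromosome, G and a number) in place of a name. Only 1764 of the 16550 genes, or 10.7%, have another name in the tables used here, and genes given below by code alone are left without a role. Array medians lay between 5.40 and 5.55 log2. Whether replicates were separate cultures is not given in the labels. The p-values therefore reflect the spread between these arrays alone, and that spread may be technical. In whole organs, fewer cells of a type and less RNA per cell cannot be told apart. Organ purity was described with genes at least 5 log2 apart between the DMSO organs, chosen on the DMSO arrays themselves. The 25 genes higher in shoots had a median of 4.56 on root DMSO array 3, against 3.53 to 3.89 on the other root arrays. The 101 genes higher in roots had medians of 3.73 to 3.81 on estradiol shoot arrays, against 3.57 to 3.59 on DMSO shoot arrays. On root arrays their medians were 9.13 to 9.33 with estradiol, against 9.33 to 9.36 with DMSO. Such genes are picked for low DMSO shoot and high DMSO root values, and the part of this choice in both offsets was not tested. Other sets were not chosen by level. The mean of 14 photosystem and light-harvesting genes was 7.11 on root DMSO array 3, within 6.78 to 7.25 on the other root arrays. For 22 expansins it was 5.56, 5.77 and 5.78 on estradiol shoot arrays, against 5.73, 5.63 and 5.76 with DMSO. For the root markers EXPA7 and EXPA18 it was 3.88, 4.67 and 4.76, against 4.56, 3.79 and 4.14.

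No gene passed the test for a difference between the organs. The smallest adjusted p over all genes was 0.451 (limma, Benjamini-Hochberg), and 895 genes, or 5.41%, had an unadjusted p under 0.05. Of these, 325 had the higher effect in roots (1.96% of all genes) and 570 the lower (3.44%). The median 95% interval of a difference, unadjusted, extended 0.47 log2 to each side with 3 arrays a group. After adjustment over all genes larger differences did not pass either: 78 genes had a difference of at least 1 log2, and 0 were called. Taken organ by organ, limma called 0 genes in roots, where 855 genes (5.17%) had an unadjusted p under 0.05. In shoots it called 27, or 0.163%, of which 22 rose (0.133%) and 5 fell (0.0302%), and 1647 genes (9.95%) had an unadjusted p under 0.05. Leaving out any 1 of the 12 arrays left 0 to 19 shoot calls, and with all probe sets tested the shoot calls were 16 higher and 17 lower. Some probe sets repeat the values of others, and with identical probe sets counted once the shoot calls were 19 higher and 7 lower.

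For the mean effect over both organs, 20 genes passed, or 0.121% of those tested. Of these, 18 rose (0.109%) and 2 fell (0.0121%), with limma adjusted p between 0.037 and 0.0471, and 1555 genes (9.4%) had an unadjusted p under 0.05. All 20 had the same sign in both organs, and 16 had an unadjusted p under 0.05 in roots taken alone. In 17 of the 20, estradiol and DMSO arrays did not overlap in either organ, which was so for 1.44% of all genes in the same direction. The same arrays chose the 20 genes, so these counts describe the choice and are no separate test. Of the 20, 15 are also among the 27 shoot calls. The other 5 were AT5G14700, AT5G25280, AT3G52070, AT1G32700 and AT5G59080. The count depended on every array: leaving out any 1 of the 12 left between 0 and 10 calls. In 7 of those 12 cases no gene passed, among them the one without root DMSO array 3, whose higher signal of the 25 shoot-enriched genes was not tested for its part in the result.

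**Figure D1:**
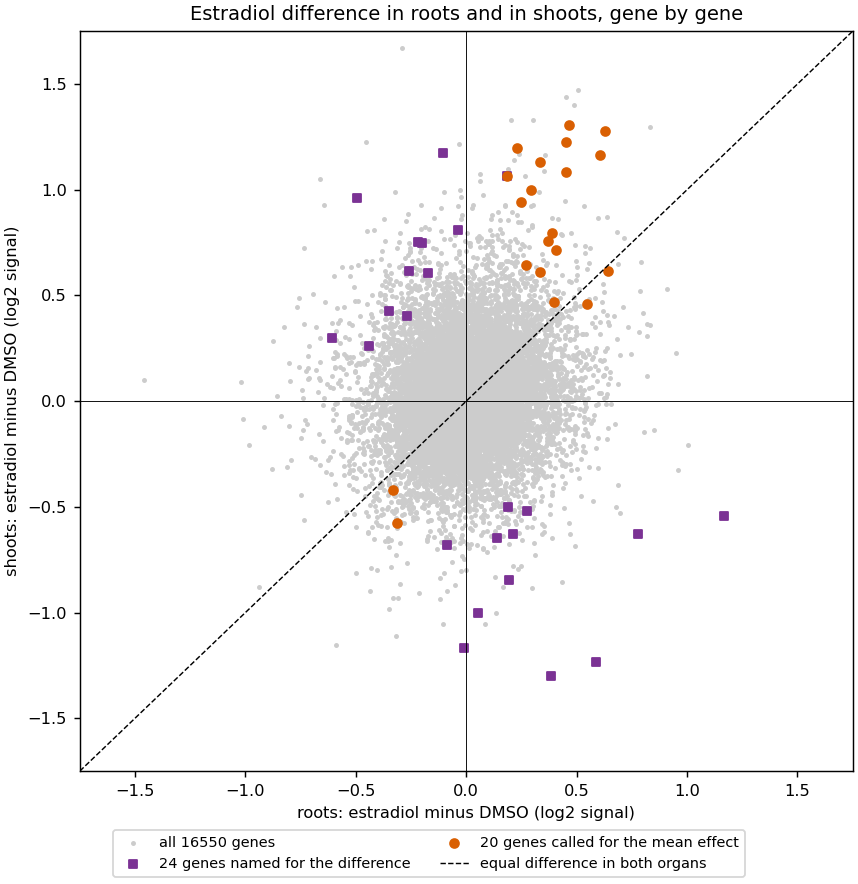
Estradiol minus DMSO difference in roots (horizontal, log2 signal) and in shoots (vertical, log2 signal) for 16550 genes, 1 point each. The 20 genes called for the mean effect (orange) lie in the quadrants of equal sign, 18 of them farther from 0 in shoots, while the 24 genes named for the difference (purple) lie far from the dashed line of equal difference; AT1G17147 belongs to both sets.

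Of the 4 largest mean rises among the called genes, 3 were those of DUF506 genes, a plant family defined by a conserved protein domain. On root arrays AT2G20670 had 6.50, 6.15 and 6.12 log2 with estradiol, against 5.93, 5.60 and 5.36 with DMSO. On shoot arrays it had 8.05, 7.72 and 7.95 with estradiol, against 7.03, 6.43 and 6.42 with DMSO. Every estradiol array lay above every DMSO array in each organ, and the mean rise was 0.95 log2 or 1.93-fold (limma adjusted p = 0.0383).

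AT4G32480, a further DUF506 gene, had 8.81, 8.17 and 8.42 log2 in estradiol roots, against 8.09, 7.64 and 7.86 in DMSO roots. In estradiol shoots it had 9.26, 9.29 and 9.41, against 8.36, 8.01 and 8.09 in DMSO shoots. The groups did not overlap in either organ, and the mean rise was 1.85-fold (limma adjusted p = 0.0383). AT3G07350 had 6.20, 6.04 and 5.94 in estradiol roots, against 5.66, 5.73 and 5.45 in DMSO roots, and its mean rise over both organs was 1.79-fold (limma adjusted p = 0.037). Its effect was 0.45 log2 in roots and 1.22 in shoots.

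AT5G19120, an aspartyl protease family gene, had 8.32, 7.93 and 7.75 log2 in estradiol roots, against 7.75, 7.50 and 7.35 in DMSO roots. In shoots the same gene had 8.09, 8.02 and 8.02 with estradiol, against 7.05, 6.70 and 6.45 with DMSO. The shoot groups were far apart, whereas in roots the lowest estradiol array and the highest DMSO array both stood at 7.75. The mean rise was 1.85-fold, with an effect of 0.46 in roots and 1.31 in shoots. AT4G36850, a PQ-loop membrane protein gene, is far lower in roots: it had 4.87, 4.79 and 4.97 in estradiol roots, against 4.29, 4.26 and 4.72 in DMSO roots, while in shoots it had 10.19, 9.66 and 9.99 with estradiol, against 9.04, 8.70 and 8.84 with DMSO. Its effect was 0.45 log2 in roots and 1.09 in shoots.

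Several shared rises were of nearly equal size in both organs. AT5G59080 had 7.76, 7.45 and 7.46 log2 in estradiol roots, against 7.00, 7.01 and 6.73 in DMSO roots. In shoots it had 10.15, 9.85 and 9.88 with estradiol, against 9.16, 9.49 and 9.37 with DMSO. Its effects were 0.64 in roots and 0.62 in shoots, and the 95% interval of the difference reached from -0.40 to 0.45. AT3G52070 had 8.42, 8.32 and 8.40 in estradiol roots, against 8.02, 7.78 and 7.69 in DMSO roots, and was the only called riser besides AT5G59080 whose effect was larger in roots (0.55) than in shoots (0.46). AT5G25280 had effects of 0.40 in roots and 0.47 in shoots, with an interval of the difference from -0.32 to 0.17.

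The 2 genes that fell were AT4G08868 and AT5G14700. On root arrays AT4G08868 had 6.59, 6.51 and 6.57 log2 with estradiol, against 6.91, 6.78 and 6.91 with DMSO. On shoot arrays it had 5.64, 5.81 and 5.73 with estradiol, against 6.20, 6.45 and 6.26 with DMSO. Neither organ's groups overlapped, and the mean effect was -0.44 log2 (limma adjusted p = 0.0383). AT5G14700 had effects of -0.33 in roots and -0.42 in shoots, and a mean effect of -0.38 (limma adjusted p = 0.0455).

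The remaining rises included genes with known roles. AT5G55970, a RING-type ubiquitin ligase gene, had effects of 0.34 in roots and 1.13 in shoots, and AT1G17147 (VQ1, of the VQ motif family) had 0.18 and 1.07. AT5G14130, a class III peroxidase gene, had 8.32, 8.25 and 8.30 in estradiol roots, against 8.02, 8.06 and 8.05 in DMSO roots. Shoot arrays read 4.42, 4.55 and 4.59 with estradiol, against 3.35, 3.49 and 3.89 with DMSO. The peroxidase gene was thus much lower in shoots and had the larger effect there, 0.94 against 0.25 in roots. The 101 root-enriched genes, chosen on the DMSO arrays, were also slightly higher on estradiol shoot arrays, and the part of root material in this value was not tested. Its mean effect of 0.59 was 0.35 with 16 added. AT5G18130, AT2G24550, AT2G27830, AT5G24890, AT1G32700, AT3G46600 and AT5G60680 had root effects between 0.23 and 0.41 and shoot effects between 0.61 and 1.20.

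Over the 18 genes that rose, the root effects spanned 0.18 to 0.64 and the shoot effects 0.46 to 1.31. The effect was larger in shoots for 18 of all 20 called genes. For 13 of the 20, the difference had an unadjusted p under 0.05, against 5.41% of all genes, but the difference shares its spread with the mean effect that chose them. None of these differences passed after adjustment over all genes.

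**Figure D2:**
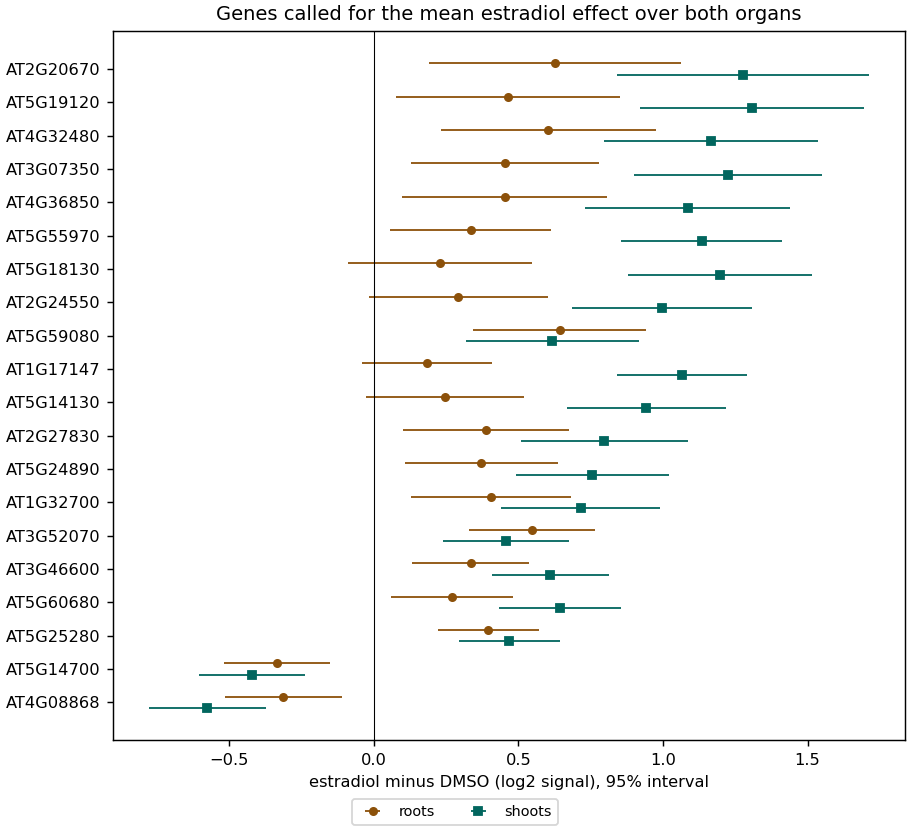
Estradiol minus DMSO difference (log2 signal) in roots (circles) and in shoots (squares) for the 20 genes called for the mean effect, ordered by the mean; bars are 95% intervals of limma with 3 arrays a group. For each gene both points lie on the same side of 0, and the shoot point lies farther out for all but AT5G59080 and AT3G52070.

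The 22 genes that rose in shoots were looked up in roots. The root arrays share the fit that called them and enter its spread, so the lookup is not independent of them. In roots, 20 of the 22 had a positive difference, and 11 had one with an unadjusted p under 0.05, against 2.38% of all genes with such a higher value. The root groups did not overlap, with estradiol higher, for 12 of the 22, against 5.29% of all genes. The median difference of the 22 was 0.30 log2 in roots and 0.96 in shoots, against -0.0069 and -0.0038 over all genes. All 22 were smaller in roots, but the shoot values chose them, so that order is a description. With only the 6 root arrays fitted, 10 of the 22 passed the unadjusted threshold, against 3.41% of all genes. With all arrays fitted but root estradiol array 1, the number was 6. For a lookup that shares no array, chosen after the data were seen, each organ was fitted alone. Shoot arrays alone called 0 genes (smallest limma adjusted p 0.264), with 1239 at an unadjusted p under 0.05. Of the 22 risers with the smallest p there, 15 are among the shoot calls of all arrays. On root arrays alone 21 of these 22 were higher with estradiol, and 7 had an unadjusted p under 0.05, against the same 3.41% of all genes.

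The 5 genes that fell in shoots had little counterpart in roots. AT4G08868 alone had a root difference with an unadjusted p under 0.05, and 3 of the 5 had a negative sign in roots. AT2G37870, of the lipid transfer protein superfamily, had 6.27, 6.68 and 6.33 log2 in estradiol roots, against 6.42, 6.56 and 6.33 in DMSO roots. In shoots the values were 5.75, 5.65 and 5.84 with estradiol, against 6.49, 7.32 and 6.93 with DMSO. The root arrays of both treatments lay in 1 range, while the shoot groups were apart. AT3G53980, of the same superfamily, had a root effect of 0.05 and a shoot effect of -1.0. It is a root gene by level, at 11.75 to 12.03 on estradiol root arrays and 7.98 to 8.29 on estradiol shoot arrays.

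Of the 27 genes called in shoots, those with the smallest difference between organs were AT4G08868, AT3G46600, AT5G60680, AT5G24890, AT2G27830 and AT3G52060. Their differences lay between -0.54 and 0.26 log2. The 6 with the largest were AT1G36060, AT2G37870, AT3G53980, AT5G18130, AT3G23470 and AT1G17147. Among them AT3G23470, a cyclopropane fatty acid synthase family gene, had 11.37, 11.28 and 11.23 in estradiol roots, against 11.36, 11.07 and 11.22 in DMSO roots. Its shoot values were 5.19, 5.00 and 4.69 with estradiol, against 4.06, 4.14 and 3.76 with DMSO. Its signal was thus high and unseparated in roots, and low but separated in shoots, with effects of 0.08 and 0.98.

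Over all genes the organs moved together only weakly. The root and shoot effects had the same sign for 57.2% of the genes, with a Pearson correlation of 0.145 across genes, which are not independent replicates. Among the 8275 genes with the higher mean signal the correlation was 0.292, and among the dimmer genes it was 0.072. Of 170 genes with an unadjusted p under 0.05 in each organ, 124 had the same sign, 77 of them higher and 47 lower. These 124 are 0.749% of all genes, and the 46 with opposite signs are 0.278%. Of the 46, 16 were higher in roots and lower in shoots, and 30 were lower in roots and higher in shoots.

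Genes that moved alike with the largest size in their weaker organ were led by AT2G15880. On root arrays it had 8.12, 7.52 and 7.77 log2 with estradiol, against 7.20, 6.93 and 6.79 with DMSO. On shoot arrays it had 8.55, 7.82 and 8.48 with estradiol, against 7.47, 6.59 and 6.90 with DMSO. The groups did not overlap in either organ, and the effects were 0.83 in roots and 1.3 in shoots. The other 9 on the higher side were AT1G26800, AT5G62340, AT2G29290, AT2G46493, AT3G18773, AT2G20670, AT5G59080, AT4G32480 and AT5G53905. Of these 10 genes, 3 are among those called for the mean effect. AT3G18773 had 9.68, 9.22 and 9.73 in estradiol roots, against 9.19, 8.84 and 8.69 in DMSO roots, and effects of 0.64 in roots and 0.87 in shoots.

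On the lower side the list held WRKY42, a gene of the WRKY transcription factor family, and BGLU47, of the beta-glucosidase family. WRKY42 had 6.83, 7.19 and 7.21 log2 in estradiol roots, against 7.99, 7.37 and 7.74 in DMSO roots. Its signal in shoots was 4.27, 4.65 and 4.42 with estradiol, against 4.78, 5.17 and 4.82 with DMSO. Its groups did not overlap in either organ, and its effects were -0.63 in roots and -0.48 in shoots. BGLU47 had effects of -0.42 and -0.47, with overlapping groups in roots. The other 8 were AT4G34950, AT5G02580, AT1G20070, AT5G42500, AT2G44940, AT1G51090, AT3G24065 and AT4G31615. None of the 10 was called for the mean effect, where their limma adjusted p lay between 0.0585 and 0.279.

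Most starvation genes were higher with estradiol in both organs, with the larger effect in shoots. The list of SnRK1 and sugar starvation genes held 9 measured members, picked from general knowledge with earlier results of these data known. In roots 8 of the 9 were higher with estradiol, and in shoots 9 of 9. The list's median difference was 0.29 log2 in roots and 0.88 in shoots. An unadjusted p under 0.05 was reached by 1 member in roots and 6 in shoots, and by 6 for the mean effect (9.4% of all genes). Only AT1G23390 was called, in shoots (limma adjusted p = 0.0393).

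AKINBETA1, a regulatory subunit of the SnRK1 complex, had 9.72, 9.24 and 9.38 log2 in estradiol roots, against 9.28, 9.14 and 9.25 in DMSO roots. In shoots it had 9.95, 9.39 and 9.88 with estradiol, against 9.19, 8.60 and 8.80 with DMSO. Only the shoot groups were apart, with an effect of 0.88 there and 0.23 in roots. The 95% interval of the difference reached from -1.24 to -0.07, with an unadjusted p of 0.032 and a limma adjusted p of 0.846.

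AT3G15450 had 10.96, 10.27 and 10.38 log2 in estradiol roots, against 10.34, 9.78 and 9.96 in DMSO roots. Shoot arrays read 10.86, 10.24 and 10.71 with estradiol, against 9.68, 8.87 and 8.85 with DMSO. The root groups overlapped at 1 array and the shoot groups did not. The effects were 0.51 in roots and 1.47 in shoots. AT4G27450 had 0.45 and 1.44, and AT3G15630 had 0.35 and 1.16.

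For these 3 genes the shoot effect had a limma adjusted p between 0.0717 and 0.0767, and the difference between organs an unadjusted p between 0.0224 and 0.0268. AT1G23390 had 6.43, 6.38 and 6.28 in estradiol roots, against 6.30, 6.16 and 5.75 in DMSO roots, and effects of 0.29 in roots and 0.92 in shoots.

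The member that departed from this order was ATL8. This gene of the ATL RING-type ubiquitin ligase family had 4.29, 3.68 and 4.28 log2 in estradiol roots, against 3.66, 2.99 and 3.15 in DMSO roots. Its effect was 0.82 in roots and 0.37 in shoots, and its difference had an interval from -0.29 to 1.19. Of the remaining members, MCCB, which encodes a subunit of an enzyme of leucine breakdown, had 0.13 and 0.26. BZIP53, a bZIP transcription factor gene, had 0.01 and 0.12. ATG8E, which encodes a protein of the autophagosome membrane, had 6.95, 6.55 and 6.81 in estradiol shoots, against 6.63, 5.88 and 6.19 in DMSO shoots, and was the 1 member with a negative root effect (-0.07).

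For the difference between organs, 6 of the 9 had an unadjusted p under 0.05, all with the smaller effect in roots, against 5.41% of all genes. The list was picked with earlier results of these data known, so this share is a description and no test of the list. In each of 21 other ways of processing or leaving out arrays, both medians stayed above that of all genes, by 0.24 to 0.41 log2 in roots and by 0.75 to 1.02 in shoots.

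**Figure D3:**
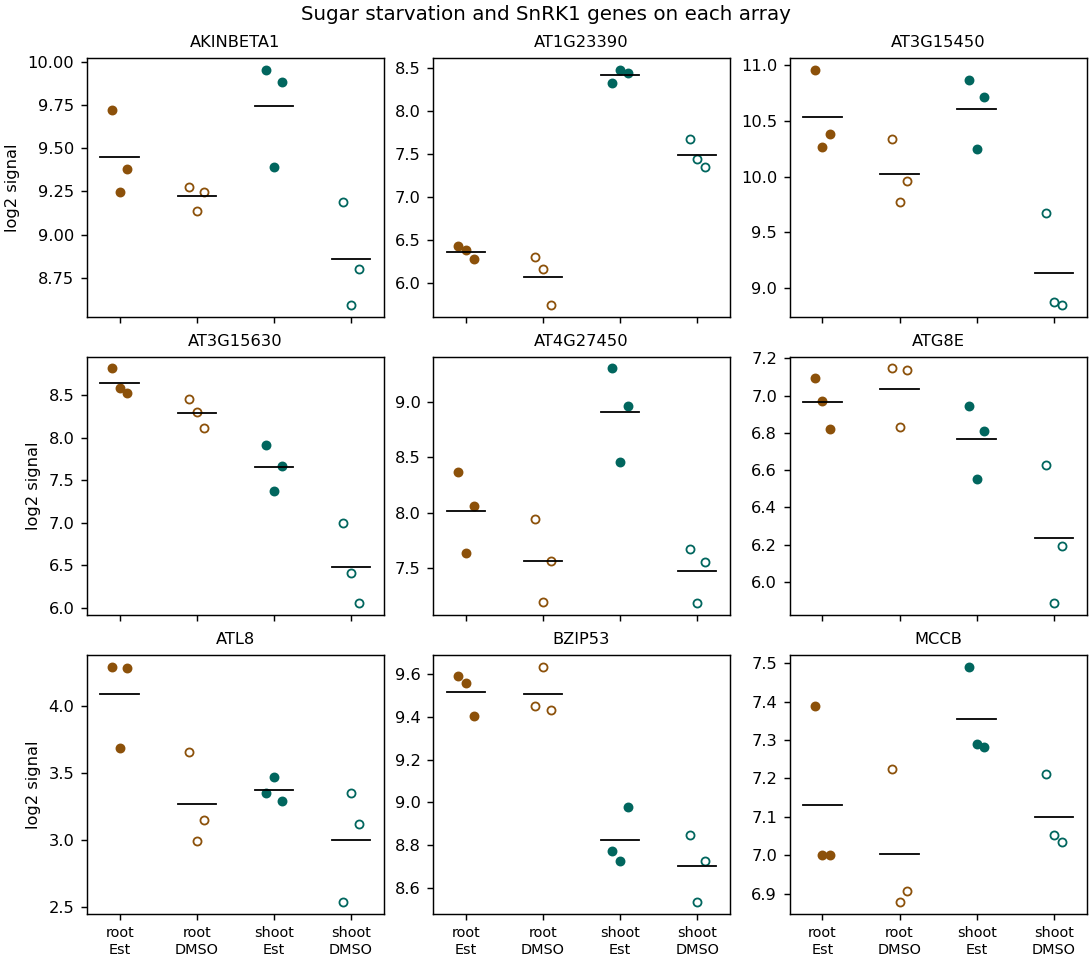
Log2 signal of the 9 measured SnRK1 and sugar starvation genes on every array (points; filled for estradiol, open for DMSO; brown for roots, green for shoots), with the group mean as a line. Vertical axes do not start at 0 and differ between panels. The estradiol mean is above the DMSO mean in shoots in every panel, and in roots in every panel but ATG8E.

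The DUF506 family as a whole followed the same pattern less evenly. Of its 13 measured members, 9 were higher in estradiol roots and 12 in estradiol shoots. The family medians were 0.16 log2 in roots and 0.31 in shoots. Besides AT2G20670, AT4G32480 and AT3G07350, the shoot calls held AT2G38820, with effects of 0.30 in roots and 0.93 in shoots. AT4G14620 had 7.60, 7.81 and 7.78 in estradiol roots, against 7.87, 7.65 and 7.86 in DMSO roots. In shoots the values were 8.04, 7.94 and 7.82 with estradiol, against 7.46, 7.47 and 7.33 with DMSO. It was separated in shoots only, with an unadjusted p of 0.00229 for the difference. AT1G77160, a dim member, went the other way, with -0.67 in roots and -0.16 in shoots.

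Of 4 genes of nitrate regulation, 3 had a higher mean in estradiol shoots and 2 in estradiol roots, and none was called. The 4 measured members of the NIGT1/HHO group, a family of transcriptional repressors that includes regulators of nitrate uptake, were too few for a family rule that asked for 8. AT1G68670 (HHO2) had 7.13, 7.09 and 7.04 log2 in estradiol roots, against 7.21, 6.96 and 7.10 in DMSO roots. Its shoot values were 7.69, 7.54 and 7.52 with estradiol, against 6.93, 7.16 and 7.13 with DMSO. The root values of both treatments overlapped and the shoot values did not, and the difference was -0.51 (95% interval -0.82 to -0.21, unadjusted p = 0.00363, limma adjusted p = 0.607).

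AT1G25550 (HHO3) had effects of 0.07 in roots and 0.30 in shoots, and AT3G25790 had 0.05 and 0.76. AT1G49560 had effects of -0.25 and -0.17, and its root groups did not overlap.

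Gene by gene, the 24 smallest p-values for the difference between organs give the candidates for moving apart, though none passed the test. Of the 12 with the higher effect in roots, AT1G31163, a dim gene, had opposite signs in the organs. On root arrays it had 2.89, 3.07 and 2.84 log2 with estradiol, against 2.26, 2.45 and 1.76 with DMSO. On shoot arrays it had 2.29, 2.60 and 2.54 with estradiol, against 2.94, 3.22 and 3.16 with DMSO. The groups did not overlap in either organ and ran in opposite directions, which was so for 0.393% of all genes. The same values chose this gene for its difference, so its separation is a description. The difference was 1.40 log2 (95% interval 0.89 to 1.92, limma adjusted p = 0.451), and 0.39 with 16 added to the linear values, which damps dim signals. That setting moved 16 of the 24 differences by over 1.5 times, and no other setting did so for any of them.

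AT3G09450 also ran in opposite directions. It had 4.09, 4.10 and 3.76 log2 in estradiol roots, against 3.35, 3.08 and 3.75 in DMSO roots. Its signal in shoots was 5.05, 5.89 and 5.17 with estradiol, against 6.81, 6.55 and 6.46 with DMSO. Its difference of 1.82 (95% interval 1.11 to 2.54) was the largest of the 24, made of 0.59 in roots and -1.24 in shoots.

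EC1.2, which encodes a small secreted protein known from the egg cell, had its larger effect in roots, at 5.22, 4.90 and 5.04 with estradiol, against 3.25, 4.22 and 4.20 with DMSO. Its shoot groups overlapped, at 4.47, 4.74 and 4.03 with estradiol, against 4.56, 5.05 and 5.26 with DMSO. RALFL20, a member of the RALF family of secreted peptides, had effects of 0.19 in roots and -0.85 in shoots. All 3 of its estradiol shoot arrays lay below 2, at 1.78 to 1.88, and its difference of 1.04 was 0.24 with 16 added.

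For the other genes on that side the shoot effect was the larger part. AT3G20460, of the sugar transporter superfamily, had 6.38, 6.35 and 6.20 log2 in estradiol roots, against 6.02, 6.27 and 6.22 in DMSO roots. In shoots it had 4.27, 4.08 and 4.20 with estradiol, against 4.86, 4.72 and 4.91 with DMSO, and only there were the groups apart. AT1G52070 had 9.90, 10.15 and 9.90 in estradiol roots but 2.09, 1.87 and 2.18 in estradiol shoots, with effects of 0.21 and -0.63. It and AT3G53980 are higher in roots by level and were lower on estradiol shoot arrays, opposite to the median of the 101 root-enriched genes. AT4G26030, AT1G11905, AT2G37870, AT4G01703 and AT2G35070 complete the 12.

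Of the 12 with the lower effect in roots, AT1G02360, a chitinase family gene, had effects of opposite sign. On root arrays it had 6.75, 6.83 and 6.61 log2 with estradiol, against 7.36, 7.18 and 7.47 with DMSO. On shoot arrays it had 4.74, 4.70 and 4.54 with estradiol, against 4.45, 4.26 and 4.37 with DMSO. Neither organ's groups overlapped, and the difference of -0.91 (95% interval -1.24 to -0.57) had a limma adjusted p of 0.451.

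LCR47, a gene of the low-molecular-weight cysteine-rich peptide family, had 1.87, 1.88 and 1.75 in estradiol roots, against 2.26, 2.46 and 2.10 in DMSO roots. Shoot arrays read 2.80, 2.72 and 2.79 with estradiol, against 2.54, 2.55 and 2.45 with DMSO. Its groups did not overlap in either organ either, at levels near the bottom of the scale, and its difference of -0.70 was -0.16 with 16 added. AT4G05018, AT5G39020, AT4G08895 and AT3G19010 also had separated groups of opposite sign, with root effects between -0.49 and -0.26 and shoot effects between 0.40 and 0.96.

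AT1G17147 (VQ1) had the smallest p of all genes for the difference, with the same sign in both organs. It had 8.61, 8.59 and 8.52 log2 in estradiol roots, against 8.38, 8.36 and 8.43 in DMSO roots. In shoots the values were 7.75, 7.58 and 7.62 with estradiol, against 6.60, 6.38 and 6.76 with DMSO. Its groups did not overlap in either organ, and the root effect fell short of the shoot effect by 0.88 log2 (difference -0.88, 95% interval -1.20 to -0.56). The limma adjusted p was 0.451, and 0.0463 with limma's trend and robust settings, where it was the only gene called.

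AT1G36060, an AP2/ERF transcription factor gene, had 7.18, 7.04 and 7.05 log2 in estradiol roots, against 7.22, 7.25 and 7.12 in DMSO roots. Its shoot values were 3.68, 3.60 and 4.07 with estradiol, against 2.93, 2.62 and 2.27 with DMSO. The root arrays overlapped and the shoot arrays did not, and the difference was -1.28 (95% interval -1.80 to -0.77). It was -0.52 with 16 added. TRI and AT3G46400 had effects of -0.22 and -0.20 in roots and 0.75 each in shoots, and the root groups of TRI were apart as well. AT1G36060, TRI, AT3G46400 and AT3G23470 were all much higher in roots by level. The 101 root-enriched genes, chosen on the DMSO arrays, were also slightly higher on estradiol shoot arrays. The part of root material in the shoot rises of these 4 named genes was not tested.

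AT5G37750 and AT5G38386 complete the 12. Of the 24 genes, 7 on the higher side and 8 on the lower side had a mean signal under that of the median gene.

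**Figure D4:**
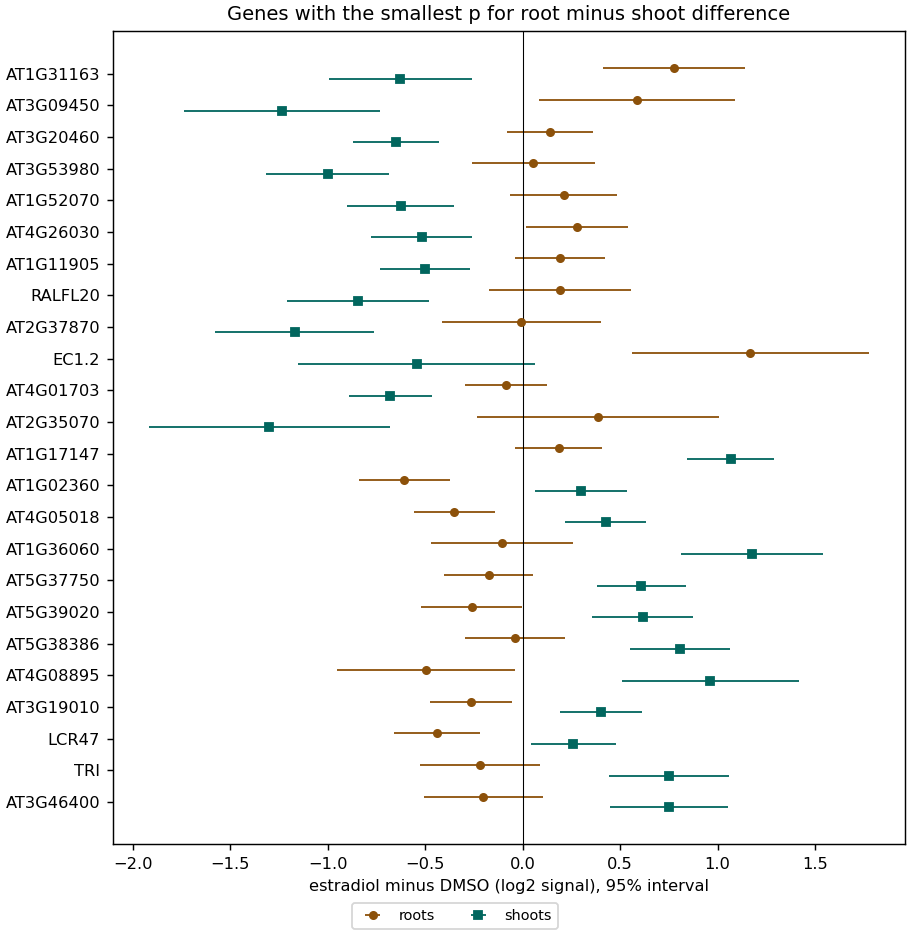
Estradiol minus DMSO difference (log2 signal) in roots (circles) and in shoots (squares) for the 12 genes with the smallest p for a higher effect in roots (upper rows) and the 12 for a lower one (lower rows); bars are 95% intervals of limma with 3 arrays a group. In most rows the shoot point lies farther from 0, and EC1.2 and AT1G02360 are among those in which the root point does.

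Gene families were formed from symbols and codes, and 43 held at least 8 measured genes. A family counted as moving alike when its median, after subtraction of the all-gene median, was at least 0.05 log2 on the same side in both organs. It counted as moving apart when the medians lay on opposite sides with a gap of at least 0.1. By this description 8 families were alike, 6 apart and 29 neither. Apart from the starvation and DUF506 lists, the medians lay within 0.2 log2 of that of all genes. None of these medians was tested.

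**Figure D5:**
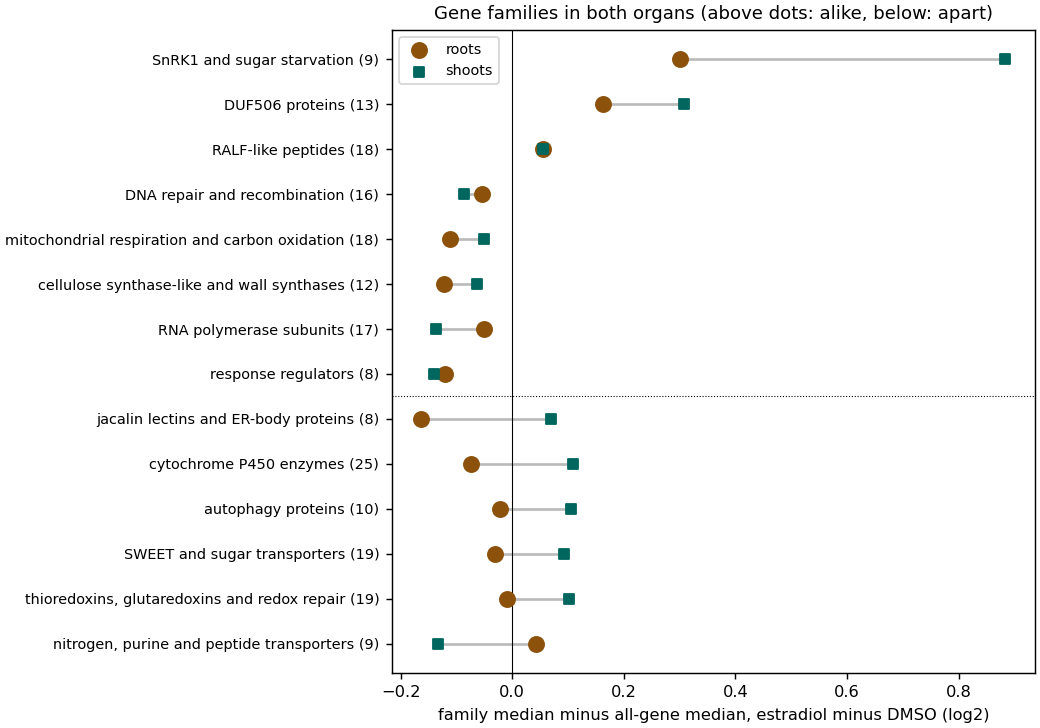
Family median minus all-gene median of the estradiol minus DMSO difference (log2) in roots (circles) and shoots (squares), for the 8 families counted as alike (above the dotted line) and the 6 counted as apart (below it); the number of genes stands in parentheses. Only the starvation and DUF506 families lie beyond 0.2 in either organ, and the RALF-like family has both points at the same place.

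The list of jacalin lectins and ER-body genes counted as apart. Jacalin lectins are sugar-binding proteins, and ER bodies are compartments that store a beta-glucosidase against herbivores and microbes. Of 8 measured members, 0 were higher in estradiol roots and 7 were higher in estradiol shoots, with medians of -0.17 and 0.07 log2. Members were matched on symbols, so lectin genes that carry a locus code alone are not in these counts and may move otherwise. An unadjusted p under 0.05 for the difference was reached by 3, against 5.41% of all genes. This list too was picked with earlier results of these data known.

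NAI1, the transcription factor that governs ER-body formation, had 6.91, 6.98 and 7.15 log2 in estradiol roots, against 7.29, 7.33 and 7.41 in DMSO roots. Its signal in shoots was 5.06, 4.42 and 5.19 with estradiol, against 4.76, 4.34 and 4.51 with DMSO. The root groups were apart, with estradiol lower, and the shoot groups overlapped. Its difference was -0.69 (unadjusted p = 0.0219).

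JAL34 had 11.34, 11.16 and 11.19 log2 in estradiol roots, against 11.24, 11.56 and 11.33 in DMSO roots. In shoots it had 8.25 on each of the 3 estradiol arrays, against 7.86, 8.15 and 8.01 with DMSO. Only its shoot groups were apart, with a difference between organs of -0.38. JAL33 had effects of -0.20 in roots and 0.25 in shoots, and JAL31 had -0.24 and 0.03. The lectin genes named here are higher in roots by level. The 101 root-enriched genes, chosen on the DMSO arrays, were slightly higher on estradiol shoot arrays. The part of root material in the shoot values of the lectin genes was not tested. The family counted as apart in 20 of 21 other settings.

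Response regulators, which relay the cytokinin signal, counted as alike on the lower side, with 8 measured genes and medians of -0.13 log2 in roots and -0.14 in shoots. Of the 8, 1 was higher in estradiol roots and 3 in estradiol shoots. ARR15, a regulator whose own expression follows cytokinin, had 2.97, 3.07 and 3.76 in estradiol roots, against 4.52, 3.78 and 4.13 in DMSO roots. In shoots this gene had 6.03, 5.99 and 5.89 with estradiol, against 6.40, 6.27 and 6.20 with DMSO. Every estradiol array lay below every DMSO array in each organ, with effects of -0.88 in roots and -0.32 in shoots. RR16 had effects of -0.74 and -0.13, and RR22 of -0.07 and -0.40. RR21 was higher in both organs, at 0.51 in roots and 0.07 in shoots. None was called. The family counted as alike in 18 of 21 other settings. Over all 21 its root median lay from -0.72 to -0.04 relative to all genes.

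Families of energy use and sugar movement had medians nearer 0 than the starvation list. Mitochondrial respiration genes (18 measured) had medians of -0.12 log2 in roots and -0.05 in shoots. CYTC-2, a cytochrome c gene, had -0.24 in roots and -0.39 in shoots, and IDH-V, a subunit of mitochondrial isocitrate dehydrogenase, had -0.18 and -0.11. SWEET and other sugar transporters (19 measured) counted as apart, with 7 higher in roots and 13 in shoots and medians of -0.04 and 0.09 log2. The median of their gene by gene differences between organs was 0.015, of the opposite sign to the gap between the medians. SWEET16, a transporter of the vacuole membrane, had 8.69, 8.48 and 8.54 in estradiol roots, against 8.84, 8.54 and 8.76 in DMSO roots, and effects of -0.15 in roots and 0.26 in shoots. It was the 1 member of 19 with an unadjusted p under 0.05 for the difference (0.0304), a share near the 5.41% of all genes.

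Autophagy genes (10 measured) also counted as apart, with medians of -0.03 log2 in roots and 0.10 in shoots. ATG8F had 9.85, 9.71 and 9.78 in estradiol shoots, against 9.61, 9.48 and 9.61 in DMSO shoots, and an effect of 0.22 there against -0.04 in roots. The starch list, matched on symbols, held 7 measured members, too few for the rule, with 1 higher in roots and 2 in shoots. APS4 entered this list by its symbol alone, and its part in starch metabolism was not checked. It had 8.06, 7.84 and 7.86 in estradiol roots, against 8.18, 8.12 and 8.13 in DMSO roots. Shoot arrays read 5.31, 5.29 and 5.57 with estradiol, against 5.85, 5.63 and 5.90 with DMSO. Its groups did not overlap in either organ, with effects of -0.22 in roots and -0.41 in shoots. APL3, which encodes part of ADP-glucose pyrophosphorylase, an enzyme that feeds starch synthesis, had -0.10 and -0.52. By contrast AMY1, an alpha-amylase gene of starch breakdown, had 0.20 and 0.53.

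Redox and detoxification families held members with effects of opposite sign, none of them called. MSRB6, of the methionine sulfoxide reductase family that repairs oxidised protein, had 5.80, 6.13 and 6.15 log2 in estradiol roots, against 6.45, 6.46 and 6.39 in DMSO roots. In shoots the values were 6.55, 6.68 and 6.46 with estradiol, against 6.47, 5.92 and 6.16 with DMSO. The root groups were apart, the shoot groups overlapped, and the difference was -0.78 (unadjusted p = 0.00277). The family of thioredoxins, glutaredoxins and redox repair (19 measured) had medians of -0.02 in roots and 0.10 in shoots, and counted as apart in 11 of 21 other settings.

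Cytochrome P450 genes (25 measured), which encode oxidising enzymes of hormone and defence metabolism, had medians of -0.08 and 0.10. CYP71B29 led them, with effects of -0.22 in roots and 0.46 in shoots and an unadjusted p of 0.00293 for the difference. It was 1 of 25 members under 0.05, a share near the 5.41% of all genes. Transporters of nitrogen, purines and peptides (9 measured) ran the other way, at 0.04 in roots and -0.14 in shoots. GTR1, a glucosinolate transporter, had effects of 0.05 and -0.24, whereas OCT1 had 0.08 and 0.54. In the 21 other settings the sugar transporter, autophagy and P450 families each counted as apart in 17, and these transporters in 15.

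The other families counted as alike had small medians. DNA repair genes (16 measured) had medians of -0.06 log2 in roots and -0.09 in shoots. POLD3, a subunit of DNA polymerase delta, had 5.20, 5.36 and 5.39 in estradiol roots, against 5.80, 5.75 and 5.64 in DMSO roots. Its shoot groups overlapped, and the effects were -0.41 in roots and -0.06 in shoots. RNA polymerase subunits (17 measured) had medians of -0.06 and -0.14, and NRPB7 had effects of -0.13 and -0.28. Cellulose synthase-like and other wall synthases (12 measured) had -0.13 and -0.07, and IRX15, of xylan synthesis, had -0.46 and -0.30. RALF-like peptides (18 measured) had 0.05 in both organs, but 8 of the 18 had the same sign in both, or 44.4% against 57.2% of all genes. They counted as alike in 10 of 21 other settings. The DNA repair, RNA polymerase, wall synthase and mitochondrial families did so in 14, 15, 15 and 16.

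Of the photosystem and light-harvesting genes (14 measured), none passed in either organ, with 0 members under an unadjusted p of 0.05 for any of the comparisons. Expansins (22 measured), which loosen cell walls during growth, had medians of -0.01 log2 in roots and -0.02 in shoots, with 15 of 22 members of the same sign in both. Genes of the chloroplast genome (63 measured) were higher in estradiol roots for 60 members and in estradiol shoots for 32. Their mean was 11.66, 11.75 and 11.66 in estradiol roots, against 11.53, 11.72 and 11.51 in DMSO roots. These root groups overlapped. Root DMSO array 3, which had the highest median of shoot-enriched genes, had the lowest of these means.

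CLE genes other than CLE2 (17 measured) counted as neither, with medians of -0.01 log2 in roots and -0.06 in shoots. An unadjusted p under 0.05 for the difference was reached by 3 of the 17, against 5.41% of all genes, in a list picked with earlier results of these data known. CLE1 had 5.20, 4.99 and 5.11 in estradiol roots, against 5.36, 5.53 and 5.16 in DMSO roots. Its shoot values were 4.14, 4.54 and 4.34 with estradiol, against 3.62, 4.19 and 3.90 with DMSO. Its groups overlapped in both organs, and its effects were -0.25 in roots and 0.44 in shoots. CLE14 had -0.29 and 0.39, and CLE44, whose peptide restrains xylem differentiation, ran the other way with 0.37 and -0.18. CLE25, whose peptide moves to leaves when roots dry, had -0.20 and -0.23, and its groups did not overlap in either organ.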

How the data were processed

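RNA from roots and shoots was measured on 12 single-colour Affymetrix arrays. The authors' deposited values are log2 signals per probe set. Per the submitters' processing notes, they come from Affymetrix Expression Console 1.3. For background correction and normalization, settings were not given in the sources used here, so any of their effects on the organs remain in the values. The number of arrays limits the precision.

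Of 38408 probe sets, 16722 were paired with 1 gene by GEO's platform annotation, 759 with several and 20927 with none. Only those with 1 gene were used, with the highest mean where several matched, which left 16550 genes. Symbols came from RefSeq's TAIR10.1 table. Tests used R 4.3.3 and limma 3.58.1 (lmFit, contrasts.fit, eBayes) with 4 group means, 8 residual degrees of freedom, no filter and Benjamini-Hochberg adjustment over all genes at 0.05. The code was tested on simulated data.

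The members and lists were chosen with earlier results of these data known. Family lists had been planned on gene descriptions, which the tables do not hold, and were matched on symbols and codes instead. Named genes were all those called for the mean effect, the 12 smallest p-values in each direction for the difference, the 10 in each direction that moved alike most, the 6 largest and 6 smallest differences among shoot calls, and up to 4 members a family. CLE, starch and chloroplast genes were picked after their values were seen. Alternatives changed the model, the normalization and the probe sets, and left out each array.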

Additional observations from a re-analysis of the deposited data

Results flagged for a closer look

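Among the 20927 probe sets paired with no gene, which no comparison above uses, 2 passed the test for the mean effect over both organs when all 38408 probe sets were fitted together. Probe set 13361537 had 8.74, 8.58 and 8.52 log2 in estradiol roots, against 7.68, 7.77 and 7.36 in DMSO roots. In shoots it had 9.18, 9.11 and 9.33 with estradiol, against 8.13, 7.61 and 8.07 with DMSO. Its mean effect was 1.141 log2 (limma adjusted p = 0.0215), with 1.01 in roots and 1.27 in shoots. Probe set 13404737 had 9.01, 8.50 and 8.61 in estradiol roots, against 8.004, 7.76 and 7.59 in DMSO roots. In shoots it had 9.10, 8.72 and 8.79 with estradiol, against 7.24, 7.18 and 7.22 with DMSO. Its mean effect was 1.2902 log2 (limma adjusted p = 0.0141), with 0.92 in roots and 1.66 in shoots. In both, every estradiol array lay above every DMSO array in each organ. Their genes are not named in the tables used here.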

How the results depend on the processing

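No gene named for the difference or called for the mean effect changed direction under any alternative run, but the counts moved. The mean effect over both organs, with 20 calls, gave 31 with a replicate block over all groups, 11 with a replicate block within organ, 69 with limma's trend and robust settings, 39 after subtraction of array medians, 65 among genes above the median level, 2 over all probe sets, 7 with identical probe sets counted once, and 65 with 16 added to the linear value. Without 1 array it gave 0 to 10, and 0 in 7 of the 12 cases. The shoot effect, with 27 calls, gave 91, 59, 84 and 77 under trend and robust settings, median subtraction, the level filter and the added 16, and 7 with array weights. Without 1 array it gave 0 to 19, with 0 without shoot estradiol array 1 or 3. Over all probe sets its 33 calls split into 16 higher and 17 lower, and with identical probe sets counted once its 26 calls were 19 higher and 7 lower. For the difference between organs, 1 gene (AT1G17147) passed with trend and robust settings. Without 1 array 0 to 1 passed, the 1 being BGLU22 without shoot DMSO array 2 (limma adjusted p = 0.0309, against 0.824 with all arrays). Families that moved alike numbered 5 with array weights, 4 after quantile normalization, 1 above the median level and 2 with 16 added, and those that moved apart numbered 2 with 16 added. The causes were not tested, and families were not run over all probe sets.

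Deviations of arrays with the same replicate number correlated at 0.02 to 0.14, not over 0.1 for every pair, and the labels do not say whether a number pairs samples. The main fit used no pairing, so any variation shared by a number stayed in its spread. Each array correlated best with its own number in 35 of 36 comparisons with another group, a hint from the data and not the design. A block by seedling set (root and shoot of a number) called 0 for the difference. With a replicate block over all groups the shoot effect gave 39 calls, 36 higher and 3 lower. With a replicate block within organ it gave 20, and the root effect gave 0 with either block.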

Other observations

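Of the glycosyltransferase genes of the UGT family (51 measured), which attach sugars to hormones and defence compounds, 21 were higher in estradiol roots and 25 in estradiol shoots. The medians were -0.05 and -0.02 log2. The sign was the same in both organs for 35 of 51, or 68.6%, against 57.2% of all genes. An unadjusted limma p under 0.05 was reached by 13 for the mean effect (9.4% of all genes) and by 5 for the difference (5.41%). The list was picked with earlier results known. The members named here were picked after their values were seen. UGT73B1 had 7.71, 7.39 and 7.74 log2 in estradiol shoots, against 6.68, 6.90 and 7.08 in DMSO shoots, with effects of 0.06 in roots and 0.73 in shoots. UGT85A5 had 6.97, 6.75 and 6.97 in estradiol shoots, against 5.98, 5.88 and 6.15 in DMSO shoots, with effects of 0.21 in roots and 0.89 in shoots. UGT78D1, a flavonol glycosyltransferase gene, ran the other way, with 0.45 in roots and -0.30 in shoots. Neither organ effect of these 3 genes was called. WES1, which encodes an enzyme that conjugates auxin to amino acids, had effects of 0.19 in roots and 0.32 in shoots.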
